A study of Mus musculus with 19 samples.

Results

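Genes that mark the mesothelium, the single layer of cells lining the visceral fat, were set beside keratins of simple epithelia in perigonadal adipose tissue of mice. The 9 genes were chosen by symbol: Msln, Upk3b, Upk1b, Lrrn4, Wt1 and Muc16 for the mesothelium, and Krt8, Krt18 and Krt19 for simple epithelium. Of these 9, 8 were read from the 24348 genes listed per library, all 8 passed the filter on low counts, and Muc16 was not analysed here. Whole perigonadal fat of C57BL/6 mice was sequenced as poly-adenylated RNA in 19 libraries. Ensure fasted mice (n = 5) received the diet labelled ENSURE and were sampled 24 hours after feeding stopped, and Ensure fed mice (n = 6) were sampled at peak weight on it. HFD fasted mice (n = 4) had the same 24 hours without food after a high-fat diet labelled 60%, and HFD fed mice (n = 4) were sampled at peak weight on that diet. A library's name below joins its group to the number its title carries. Because the labels do not say that the libraries came from separate animals, a p-value here reflects how far these libraries scatter, which may be technical.

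Mesothelial cells form a thin epithelium of mesodermal origin on the serous surface of organs and fat pads. They make mesothelin and keratins of the simple epithelial type, so that Krt8, Krt18 and Krt19 mark mesothelium and glandular or duct epithelium alike. Cdh16, a cadherin of kidney tubules and of the genital ducts, was used as the gene that stands for tract epithelium, since perigonadal fat lies against the reproductive tract.

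Levels are CPM, a gene's counts taken per M counts of its library and scaled with TMM, a method that corrects for differences in library composition. Libraries held 12.8 M to 22.6 M counts in genes, so that 3 counts corresponded to 0.124 to 0.21 CPM. Markers of adipocytes (Adipoq, Plin1, Lep, Fabp4 and Cidec) summed to 9286 to 24878 CPM. Markers of the epididymis, of 10 genes, summed to 7.85 to 9523 CPM and were highest in Ensure fasted 5, and those of duct smooth muscle, of 4 genes, summed to 84.0 to 5599 CPM, also highest there. Markers of sperm cells, of 4 genes, summed to 0.763 to 601 CPM and were highest in Ensure fasted 2. Libraries therefore stood apart in RNA of neighbouring organs, and values without them are given below beside the keratin, list and member results. In whole tissue, fewer cells of a type and less RNA per cell cannot be told apart.

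Cdh16 was at 54.2, 34.1, 3.3, 0.361 and 0.264 CPM in Ensure fasted 2, 5, 17, 7 and 8, against a lowest, median and highest level of 0.0513, 2.25 and 42.1 CPM in Ensure fed libraries. It was at 51.1, 47.5, 0.383 and 0.355 CPM in HFD fasted 24, 26, 28 and 23, against 41.9, 4.57, 2.28 and 0.457 CPM in HFD fed 21, 22, 27 and 25. Each group thus held libraries with much and with almost no Cdh16, and the groups overlapped over most of the range. On the linear scale, 6 libraries stood above the widest gap at 34.1 to 54.2 CPM, namely Ensure fasted 2 and 5, Ensure fed 16, HFD fasted 24 and 26 and HFD fed 21, and the other 13 were at 13.03 CPM or less. On the log2 scale the widest gap set 11 libraries at 2.28 CPM or more apart from 8 at 0.457 CPM or less, where Cdh16 rested on 1 to 9 counts.

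Sequence around the start site is shown for 2 mesothelial members that followed each other closely and for the keratin pair, because they fell into separate patterns. The RefSeq promoter table held 5 of the 9 genes. Each window runs 300 bases, 250 before and 50 after the start that RefSeq gives on GRCm38.p6, a later build than the one used for the counts, 5′ to 3′ on the gene's strand. Upk3b lies at chr5:136038246-136038545 (plus strand), Lrrn4 at chr2:132880813-132881112 (minus strand), Krt8 at chr15:102004293-102004592 (minus strand) and Krt18 at chr15:102027966-102028265 (plus strand). Capitals mark any match, on either strand, to 6 motifs. These were the TATA box as TATAAA, the GC box as GGGCGG, the shared WT1 and EGR core as GCGTGGG, the TEAD core as GGAATG, the AP-1 site as TGANTCA and the AP-2 site as GCCNNNGGC.
Upk3b: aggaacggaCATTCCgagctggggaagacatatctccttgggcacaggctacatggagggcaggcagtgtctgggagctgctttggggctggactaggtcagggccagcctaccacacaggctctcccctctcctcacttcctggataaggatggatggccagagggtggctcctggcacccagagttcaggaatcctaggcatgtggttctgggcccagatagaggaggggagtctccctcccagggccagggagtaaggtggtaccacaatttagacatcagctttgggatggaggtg
Lrrn4: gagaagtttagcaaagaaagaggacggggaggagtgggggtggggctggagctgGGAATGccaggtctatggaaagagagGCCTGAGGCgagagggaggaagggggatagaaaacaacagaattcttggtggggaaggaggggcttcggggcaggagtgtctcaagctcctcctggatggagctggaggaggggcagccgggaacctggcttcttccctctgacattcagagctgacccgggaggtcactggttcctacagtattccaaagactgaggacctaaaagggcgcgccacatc
Krt8: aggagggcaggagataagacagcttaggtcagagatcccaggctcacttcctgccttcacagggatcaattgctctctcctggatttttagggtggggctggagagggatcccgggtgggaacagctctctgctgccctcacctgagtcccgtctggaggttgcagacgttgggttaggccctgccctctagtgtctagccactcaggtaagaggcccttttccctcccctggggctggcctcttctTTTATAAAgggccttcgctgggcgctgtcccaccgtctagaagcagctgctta
Krt18: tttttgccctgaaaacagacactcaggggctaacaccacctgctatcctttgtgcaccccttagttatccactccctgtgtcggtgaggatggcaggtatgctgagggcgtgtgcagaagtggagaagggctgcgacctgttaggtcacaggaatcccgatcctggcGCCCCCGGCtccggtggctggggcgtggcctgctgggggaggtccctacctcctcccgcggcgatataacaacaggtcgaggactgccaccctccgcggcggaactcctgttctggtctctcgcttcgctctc
The TEAD core, held by 14.7% of 32851 RefSeq promoters of this length, was found once in Upk3b and once in Lrrn4 and in neither keratin. The window of Muc16, the other mesothelial member with a RefSeq promoter, is not shown and held no TEAD core. The Krt8 window held 2 overlapping TATA box matches on opposite strands (13.6% of promoters hold 1 or more), and the AP-2 motif (16.6%) was found in Lrrn4 and Krt18. The Krt8 matches began at -3 and -1 from the start that RefSeq gives, and so lay across it. The WT1 and EGR core (5.04%), AP-1 (7.81%) and the GC box (35.7%) had no match in these 4 windows. Matches describe letters only.

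Among mesothelial members, Msln encodes mesothelin, a cell surface protein of the mesothelium. Msln was at 88.1, 60.9, 52.1, 39.3 and 29.7 CPM in Ensure fasted 17, 2, 7, 5 and 8, against a lowest, median and highest level of 29.8, 45.6 and 70.7 CPM in Ensure fed libraries. Msln was at 58.2, 42.3, 23.6 and 21.3 CPM in HFD fasted 24, 26, 23 and 28, against 40.2, 26.4, 24.9 and 24.5 CPM in HFD fed 27, 21, 25 and 22. Fasted and fed libraries overlapped on both diets, and the coefficient of variation over the 19 libraries was 42.6%.

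Upk3b and Upk1b encode uroplakins, membrane proteins that the urothelium of the bladder also makes. Upk3b was at 94.7, 74.3, 61.8, 54.6 and 35.4 CPM in Ensure fasted 17, 2, 7, 5 and 8, against 37.9, 51.2 and 71.1 CPM (lowest, median, highest) in Ensure fed libraries, and at 124, 59.97, 58.2 and 24.3 CPM in HFD fasted 24, 26, 23 and 28, against 92.0, 46.0, 44.2 and 38.1 CPM in HFD fed 27, 25, 22 and 21. Upk1b ranged from 11.7 to 30.04 CPM in Ensure fasted and 11.01 to 21.3 CPM in Ensure fed libraries, and with HFD from 14.7 to 26.5 CPM in fasted and 10.4 to 20.3 CPM in fed mice. Other uroplakins of the urothelial plaque were near 0 in most libraries: Upk3a was at 0 in all but 1 library (0.0513 CPM in an Ensure fed one), and Upk1a and Upk2 were at most 1.04 and 0.0525 CPM outside Ensure fasted 5, which had 9.75 and 3.75 CPM. The related Upk3bl, whose reads the counting could confuse with those of Upk3b, was at most 0.56 CPM.

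Lrrn4 encodes a leucine-rich repeat neuronal protein that is also a surface marker of mesothelial cells. Lrrn4 ranged from 16.3 to 35.8 CPM in Ensure fasted and 13.96 to 29.8 CPM in Ensure fed libraries. With HFD, its range was 10.1 to 52.5 CPM in fasted mice and 13.8 to 31.5 CPM in fed mice, so that the groups overlapped on both diets. Wt1 encodes a transcription factor of the mesothelium, and in visceral fat it is also found in progenitor cells. Wt1 varied least of the 8 members, with a coefficient of variation of 31.0%, from 8.68 to 21.6 CPM. Without Ensure fasted 17 it had 30.3%, and Upk1b 30.1%.

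**Figure D1:**
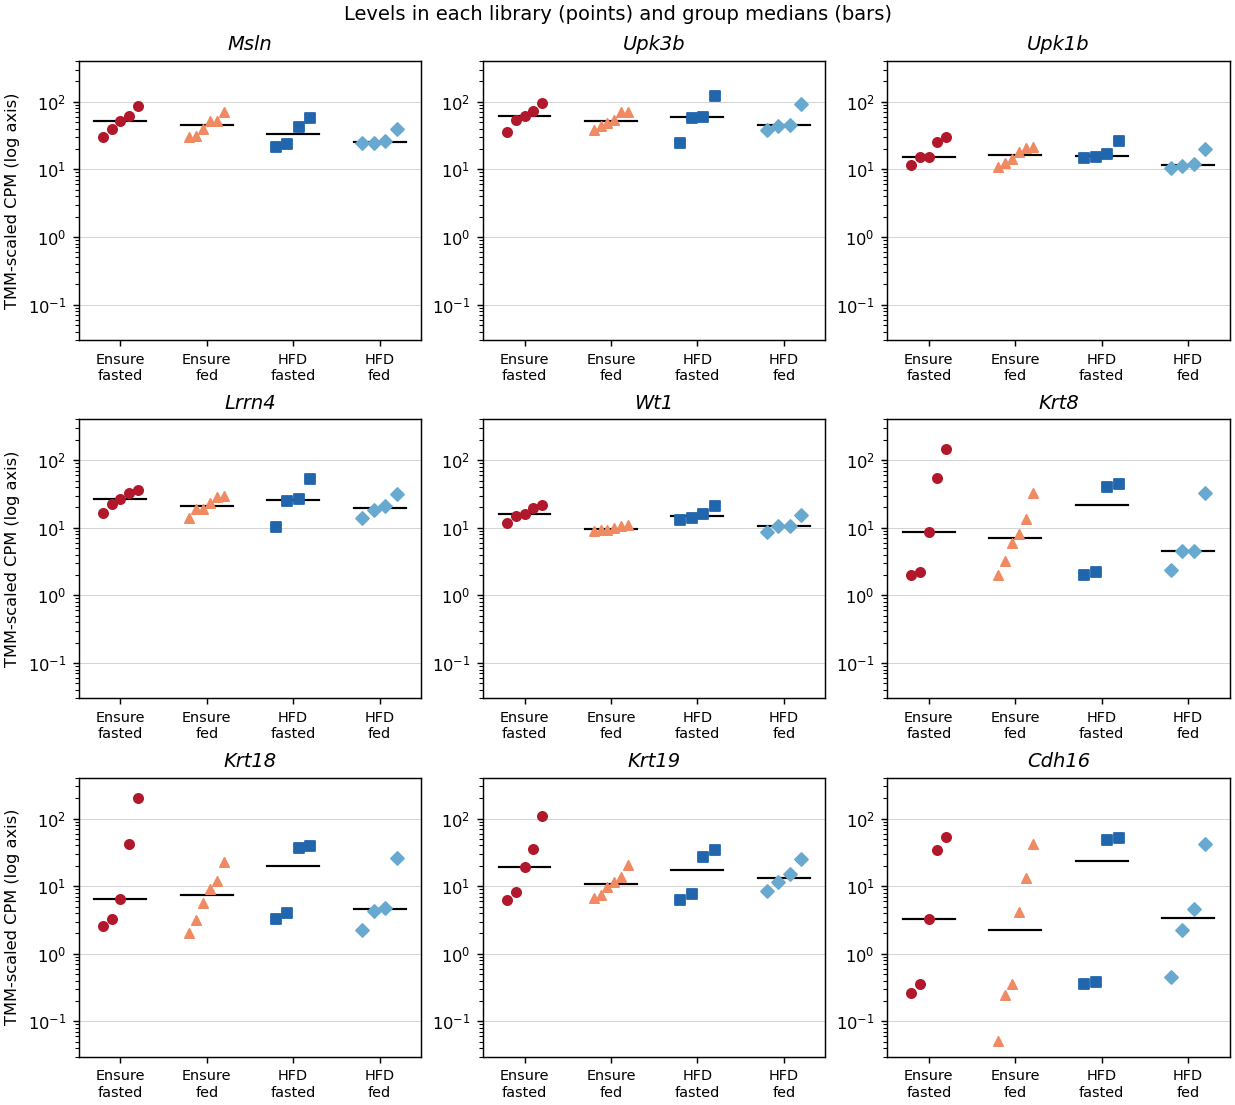
TMM-scaled CPM (log axis) of the 8 members and Cdh16 in each library, by group, with bars at the group medians. Mesothelial members stay within 8.68 to 124 CPM, whereas Krt8, Krt18 and Cdh16 spread within every group, Cdh16 down to 0.0513 CPM.

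Krt8 and Krt18 encode the partner keratins that pair into filaments of simple epithelia, and Krt19 a small keratin of the same cells. Krt18 was at 199, 41.7, 6.44, 3.23 and 2.59 CPM in Ensure fasted 5, 2, 17, 8 and 7, against 2.04, 7.31 and 22.7 CPM (lowest, median, highest) in Ensure fed libraries. It was at 38.7, 36.3, 4.05 and 3.25 CPM in HFD fasted 24, 26, 28 and 23, against 26.02, 4.78, 4.32 and 2.23 CPM in HFD fed 21, 22, 27 and 25. The highest keratin levels thus fell in the libraries with the highest Cdh16. Krt8 ranged from 1.98 to 145 CPM and Krt19 from 6.3 to 108 CPM over the 19 libraries. The coefficients of variation were 159% for Krt8, 199% for Krt18 and 115.3% for Krt19, and without Ensure fasted 5 they were 118%, 109% and 62.5%. Genes with a mean within 2-fold of that of Krt18 had a median of 19.6%. The mesothelial members also varied more than the median gene of like level. Msln had 42.6% against 17.7%, Upk3b 40.4% against 17.3% and Lrrn4 39.6% against 19.3%. Upk1b had 33.6% against 21.0% and Wt1 31.0% against 22.6%.

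Per kb of exon, with lengths from GRCm38, the median level over the 19 libraries was 18.3 CPM per kb for Msln, 15.5 for Upk3b, 8.08 for Upk1b, 7.36 for Krt19, 6.26 for Lrrn4, 3.92 for Krt18, 3.46 for Wt1, 3.05 for Krt8 and 0.993 for Cdh16. Neighbours in this order had overlapping ranges over the libraries. The share of Krt19 in the 3 keratins per kb was 24.4 to 31.6% in the 6 libraries of highest Cdh16. In 11 of the other 13 libraries it was 50.2 to 66.4%, and the exceptions were Ensure fed 1, with 39.5% and 13.03 CPM of Cdh16, and Ensure fed 10, with 27.2% and 0.359 CPM. Ensure fed 10 held 568.3 CPM of the epididymis markers, and their part in its keratin make-up was not tested. Krt19 was thus the most abundant of the 3 keratins in all of these 13 libraries but Ensure fed 10, and Krt8 and Krt18 made up most of them in the 6 libraries of highest Cdh16. These shares were looked at after the levels were known and are a description.

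**Figure D2:**
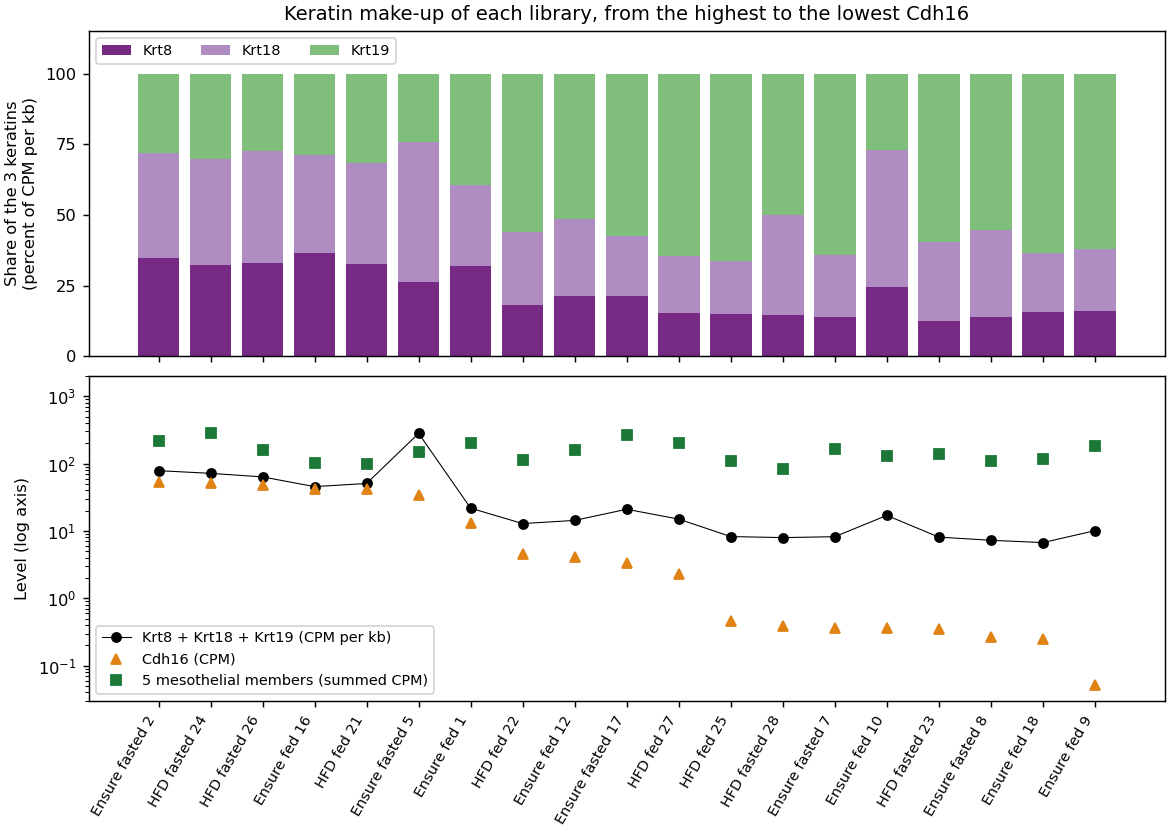
Libraries from the highest to the lowest Cdh16: the share of each keratin in percent of CPM per kb (top), and on a log axis the summed keratins per kb, Cdh16 and the 5 mesothelial members (bottom). Krt19 holds 24.4 to 31.6% in the 6 libraries on the left, and the mesothelial sum stays between 84.5 and 282 CPM throughout.

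Mesothelial members varied together over the 19 libraries. Upk3b and Lrrn4 gave Pearson's r = 0.977 and Spearman's rho = 0.975 (permutation test, two-sided, adjusted p = 0.000175 and 0.000117 over a family of 35 relations), and r was 0.955 without the 2 libraries farthest from the median. Msln gave r = 0.846 with Upk1b, 0.776 with Upk3b and 0.766 with Lrrn4, with adjusted p of 0.000175, 0.000758 and 0.000758 (permutation tests), and rho of 0.811, 0.781 and 0.795, with adjusted p of 0.000262, 0.000817 and 0.000817. Without the 2 libraries farthest from the median, r was 0.846, 0.692 and 0.698. Among the 9 libraries of lane 7, which hold all HFD libraries and 1 of Ensure, these r were 0.801, 0.855 and 0.848, and the other lanes held 5 libraries each. Wt1 followed Msln less closely, with r = 0.376 and rho = 0.282 (permutation tests, adjusted p = 0.283 and 0.467). With Upk1b, Wt1 gave r = 0.666 and rho = 0.595 (permutation tests, adjusted p = 0.00871 and 0.0339), and r was 0.494 without the 2 farthest libraries. With Upk3b and Lrrn4, Wt1 gave r of 0.532 and 0.55 (permutation tests, adjusted p = 0.0613 and 0.0504). With group means removed, Wt1 and Msln gave r = 0.57 (permutation test, adjusted p = 0.0275). The keratins gave r with Msln of 0.324 (Krt8), 0.229 (Krt18) and 0.339 (Krt19) over the 19 libraries (permutation tests, adjusted p = 0.342, 0.58 and 0.321). Among the 9 libraries of lane 7 these r were 0.669, 0.626 and 0.748.

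Members were then fitted in edgeR with the log2 level of Msln or of Cdh16 beside the 4 groups, so that a difference between groups could not give a slope. On Msln, 2 of 16014 genes were called at an adjusted p under 0.05, or 0.0125%, and both were mesothelial members: Upk1b, with a slope of 0.78 ± 0.10 log2 units per log2 unit of Msln (SE, n = 19 libraries, adjusted p = 0.0106, edgeR), and Upk3b, with 0.98 ± 0.14 (adjusted p = 0.0176). Lrrn4 had the next smallest p of all genes, with 0.92 ± 0.15 (adjusted p = 0.0614). It was called in 11 of 35 alternatives, among them DESeq2 (adjusted p = 9.76e-06), voom (adjusted p = 0.00863), DESeq2 size factors (adjusted p = 0.0436), library size alone (adjusted p = 0.0373) and no group term (adjusted p = 0.0356). Calls also came without HFD fed 21, HFD fasted 23, HFD fasted 28 or Ensure fasted 5. Another of the 11 used Upk3b in place of Msln and so was no slope on Msln. With 1 library left out, the slope of Lrrn4 was 0.78 to 1.02, with adjusted p of 0.0236 to 0.779 (edgeR). Wt1 had 0.32 ± 0.11 (adjusted p = 0.409). The number of genes called depended on the tool and the model: DESeq2 called 44 (30 positive, 14 negative), limma voom 25, all positive, and edgeR without the group term 141 (27 positive, 114 negative), while edgeR with lane as a term called 0. The keratins gave slopes of 0.20 ± 1.16 for Krt8, -0.10 ± 1.12 for Krt18 and 0.40 ± 0.57 for Krt19, none called. The edgeR calls of Upk1b and Upk3b were both lost without HFD fasted 24, without Ensure fasted 8 or without Ensure fasted 17, that of Upk3b also without HFD fed 27, while the slopes stayed at 0.73 to 0.82 for Upk1b and 0.86 to 1.09 for Upk3b whichever library was left out. Both were also lost with lane as a term (0.77 and 1.01, adjusted p = 0.0762 for each) and without the 5 libraries that earlier results gave as rich in epididymis and testis markers, namely Ensure fasted 2 and 5, Ensure fed 10 and 12 and HFD fasted 24 (0.78 and 0.92, adjusted p = 0.389 and 0.84).

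Other mesothelial genes (Bnc1, Gpm6a, Pkhd1l1, Rspo1, Nkain4, Cldn15, Aldh1a2, Calb2, Pdpn and Bcam) were positive on Msln in 9 of 9 tested, with a median slope of 0.57, against -0.03 over all genes tested, but 0 of 9 were called by edgeR, against 4 by DESeq2 and 3 by voom. Calb2 did not pass the filter: it was at 0 in 15 of the 19 libraries and highest in Ensure fasted 5, at 2.2 CPM. Nkain4 had 0.73 ± 0.13, Pkhd1l1 0.83 ± 0.16, Gpm6a 0.74 ± 0.14 and Bnc1 0.57 ± 0.13. In the 16 simple epithelial genes tested, which include Epcam, Cdh1 and the claudins Cldn3, Cldn4 and Cldn7, the median slope on Msln was -0.31 and 0 were called. The genes whose pattern was most like Msln, by Pearson's r over 19 libraries with group means removed, were Tmem151a (0.837), Nkain4 (0.832), Aplp1 (0.825), Cybrd1 (0.824), Gpm6a (0.803) and Pkhd1l1 (0.799), while Upk1b, Upk3b and Lrrn4 themselves gave 0.901, 0.875 and 0.847.

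On Cdh16, 29.3% of 16014 genes were called, 2571 (16.1%) with a positive and 2116 (13.2%) with a negative slope. Library size alone gave 3468 and 426, no filter 3543 and 1572, so that this split depends on scaling and filter. All 3 keratins were called with positive slopes: Krt8 with 0.72 ± 0.07 log2 units per log2 unit of Cdh16 (adjusted p = 1.17e-06), Krt18 with 0.62 ± 0.10 (adjusted p = 0.000159) and Krt19 with 0.36 ± 0.05 (adjusted p = 6.87e-05, edgeR). Without Ensure fasted 5 these slopes were 0.66, 0.53 and 0.31, and without those 5 libraries rich in epididymis and testis markers they were 0.68, 0.56 and 0.28, all called. The 5 mesothelial members had slopes of 0.03 to 0.08, and 0 of 5 were called. Without the 6 libraries of highest Cdh16, an alternative chosen after the levels were seen, no keratin was called, with slopes of 0.46 for Krt8, 0.25 for Krt18 and 0.25 for Krt19 (adjusted p = 0.147, 0.923 and 0.275). Within the 11 libraries of higher Cdh16, r with Cdh16 was 0.895 for Krt8, 0.835 for Krt18 and 0.645 for Krt19 (permutation tests, adjusted p = 0.00225, 0.00739 and 0.0656), with rho of 0.827, 0.818 and 0.709 (adjusted p = 0.0138, 0.0152 and 0.0564), and r was 0.871, 0.783 and 0.678 without the 2 farthest libraries. Within the 8 libraries of low Cdh16, r was -0.03, 0.11 and -0.38 (exact permutation tests, adjusted p = 0.992, 0.869 and 0.581), on Cdh16 levels near the limit that 3 counts set, with rho of 0.21, 0.14 and -0.07 (adjusted p = 0.867, 0.914 and 0.952). Without the 2 farthest of these libraries r was 0.09, -0.16 and 0.64, so that no direction can be read there.

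**Figure D3:**
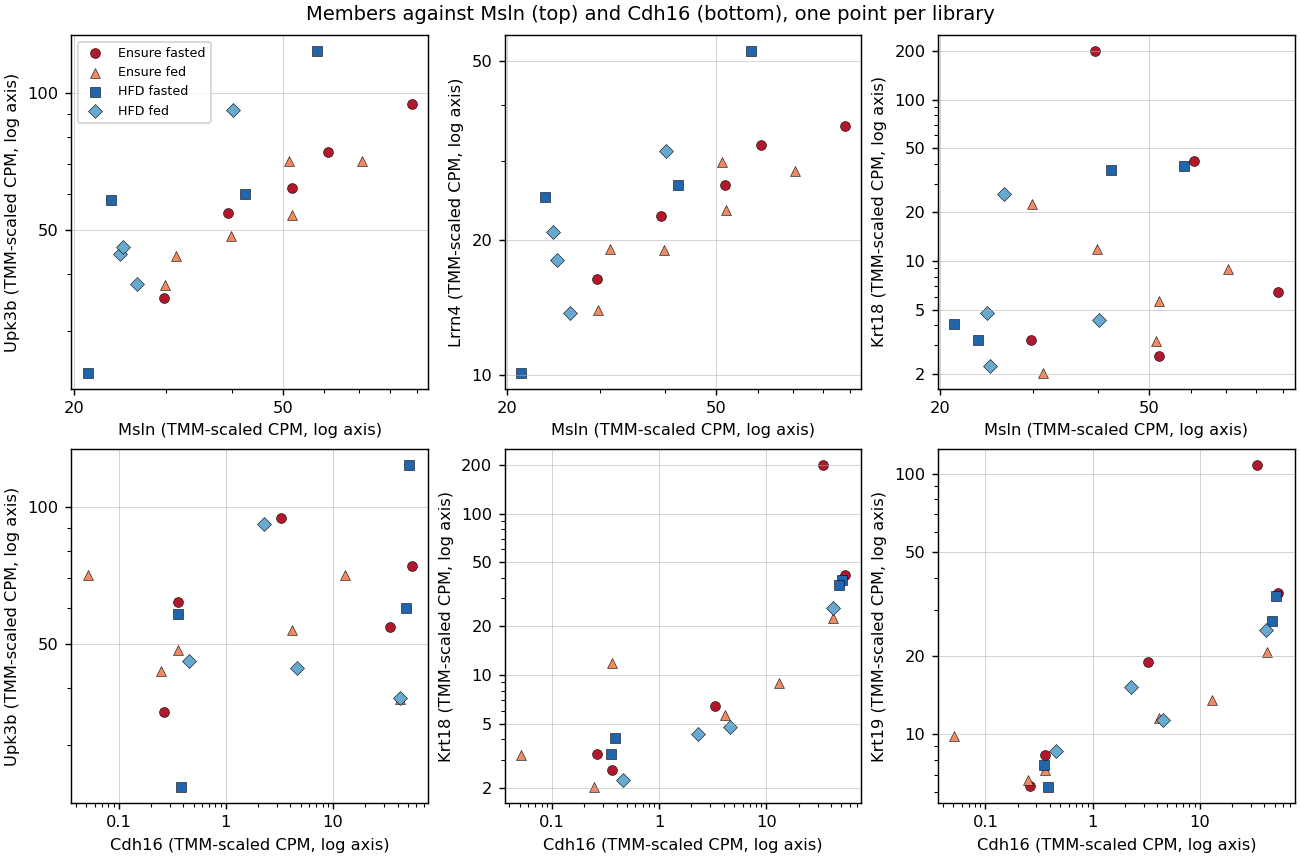
Each point is a library, in TMM-scaled CPM on log axes, with members against Msln (top) and against Cdh16 (bottom). Upk3b and Lrrn4 follow Msln (r = 0.776 and 0.766), and Krt18 separates by Cdh16.

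The keratins moved with other epithelial genes. Of 16 simple epithelial genes tested, 13 were called with a positive slope on Cdh16, 0 with a negative one, and the median slope was 0.69, against -0.01 over all genes. Elf3, an epithelial transcription factor, had 1.05 ± 0.10, Epcam, an epithelial adhesion protein, 0.97 ± 0.12, Cldn7 0.95 ± 0.12 and Spint1, a protease inhibitor, 0.72 ± 0.10. Krt7 was not called (0.16 ± 0.06, adjusted p = 0.0685), nor was Muc1 (0.04 ± 0.04, adjusted p = 0.465). Without Ensure fasted 5, 14 of 16 were called, and without the 6 libraries of highest Cdh16 0 of 15. Sperm cell markers had a median slope of 0.75 with 4 of 4 called, but 0 of 4 with lane as a term or without Ensure fasted 2, 7, 8 or 17, HFD fasted 23, 24 or 28 or HFD fed 21 or 27. Of the epididymis markers 1 of 8 was called, with a median slope of 0.60, and of the duct smooth muscle markers 1 of 4, Cnn1, with a median of 0.41. Without Ensure fasted 5, the library highest in both, these counts were 1 of 8 and 3 of 4, and the part of these organs in the keratin slopes was not tested. All 7 other tract genes tested were called, among them Mmp7 (1.30 ± 0.07), Dcdc2a (1.30 ± 0.07) and Wfdc2 (0.89 ± 0.08), and all 7 also without Ensure fasted 5 or without the 5 libraries, but 2 of 6 without the 6 of highest Cdh16. Of the other mesothelial genes, Rspo1 (0.20 ± 0.03), Bcam (0.11 ± 0.03) and Aldh1a2 (0.09 ± 0.03) were called too, 3 of 9, with small slopes, and without the 5 libraries 1 of 9, Rspo1. The stratified or basal epithelial genes Krt14 and Trp63, the 2 of 4 tested, were not called.

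The genes most like Krt18 in pattern were Cutal (r = 0.992), Ap1m2 (0.992), Arhgef16 (0.991), Pax8 (0.991), Gstm7 (0.99) and Prss8 (0.99), over 19 libraries with group means removed. Those most like Cdh16 were Adcy8 (0.997), Fermt1 (0.996), Slc26a3 (0.994), Calml3 (0.992), Mmp7 (0.991) and Sult1d1 (0.99). Without the 5 libraries rich in epididymis and testis markers the genes listed for Cdh16 gave 0.993 to 0.997, at ranks 2 to 18. Krt18 gave 0.982 with Krt8, 0.934 with Krt19 and 0.876 with Cdh16, against 0.191 with Msln. Without Ensure fasted 5, Krt18 gave 0.985, 0.896 and 0.922 with these genes, against 0.389 with Msln, and its 6 most similar genes gave 0.984 to 0.991. Without the 5 libraries rich in epididymis and testis markers those 6 gave 0.978 to 0.99, but their ranks among 13673 genes lay between 22 and 126, so that which genes come first depends on these libraries. On the same measure Krt19 gave 0.361 with Msln and 0.876 with Cdh16. These were 0.627 and 0.937 without Ensure fasted 5, and 0.567 and 0.906 without those 5 libraries. Among the 8 libraries of low Cdh16, r of Krt19 with Msln was 0.568 (permutation test, adjusted p = 0.321). It was -0.05 without the 2 farthest libraries. With group means removed it was 0.921, where HFD fed 25 alone stood for its group.

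With both levels in 1 fit, 23% of 16013 genes were called on Cdh16 (14.2% positive and 8.74% negative, or 2281 positive and 1400 negative, against 2633 and 92 with library size alone, 2914 and 873 with no filter and 2237 and 758 with library sizes over all genes) and 0.0187% on Msln. The keratins kept positive slopes on Cdh16, at 0.74 ± 0.08 for Krt8 (adjusted p = 2.32e-06), 0.67 ± 0.10 for Krt18 (adjusted p = 0.000111) and 0.36 ± 0.06 for Krt19 (adjusted p = 0.000152, edgeR), and 0 of 3 were called on Msln. The 3 genes called on Msln were Upk1b with 0.82 ± 0.10 (adjusted p = 0.0119), Upk3b with 1.01 ± 0.15 (adjusted p = 0.0218) and Pkhd1l1 with 0.98 ± 0.14 (adjusted p = 0.0218), and Lrrn4 had 0.96 ± 0.16 (adjusted p = 0.0717). The calls of Upk3b and Upk1b were both lost without Ensure fasted 8, Ensure fasted 17, Ensure fed 16, HFD fasted 24 or HFD fed 27, and that of Upk3b also without HFD fed 21, 22 or 25 or Ensure fed 9, with slopes of 0.91 to 1.09 for Upk3b and 0.77 to 0.85 for Upk1b over all omissions of 1 library. They were also lost with lane as a term (adjusted p = 0.104 for each), without the 5 libraries rich in epididymis and testis markers (adjusted p = 0.282 for Upk3b and 0.0803 for Upk1b) and with no group term (adjusted p = 0.109 and 0.106). With both levels in the fit the slopes of Upk3b, Upk1b, Lrrn4 and Wt1 on Cdh16 were -0.02 to 0.01, none called. Without the 6 libraries of highest Cdh16, Krt19 was called on Msln alone (0.99, adjusted p = 0.0316), 1 of 3 genes called in those 13 libraries, whereas the fit with both levels called no keratin on either.

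**Figure D4:**
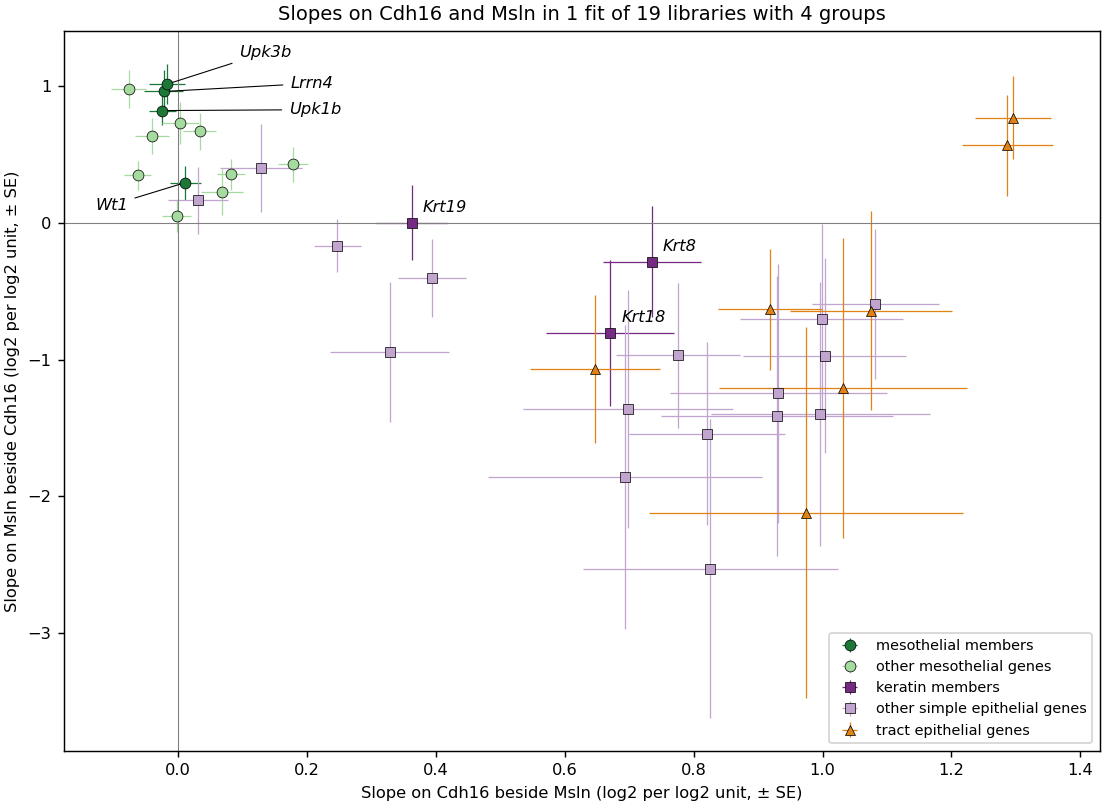
Slope on Cdh16 (horizontal) and on Msln (vertical) in 1 fit of 19 libraries with 4 groups, in log2 units per log2 unit with SE bars. Upk3b, Upk1b and Lrrn4 lie at 0.82 to 1.01 on Msln and near 0 on Cdh16, and the keratins at 0.36 to 0.74 on Cdh16.

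The design compares fasted with fed mice on each diet. With Ensure, 20.3% of 16015 genes were called (10.6% higher, 9.77% lower) and 1 of 8 members, Wt1. The split, 1690 higher and 1565 lower, was 1452 and 1963 with library sizes over all genes, 260 and 500 with lane as a term, and 980 and 1902 without Ensure fasted 5. Leaving out Ensure fed 18 gave 888 higher and 1663 lower, and leaving out Ensure fed 9 gave 904 and 1659. Wt1 was at 21.6, 19.8, 15.9, 14.7 and 11.6 CPM in Ensure fasted 2, 17, 5, 8 and 7, against a lowest, median and highest level of 8.89, 9.68 and 11.03 CPM in Ensure fed libraries. The 2 groups did not overlap, as for 15% of genes, and Wt1 was higher by 0.76 ± 0.17 on the log2 scale in fasted mice (SE, adjusted p = 0.00552, edgeR), where the median of all genes was 0.11. Within lane 5, Ensure fasted 2, 5, 7 and 8 were at 11.6 to 21.6 CPM, against 10.6 CPM in Ensure fed 1, and within lane 6 Ensure fasted 17 was at 19.8 CPM, against 9.28 to 11.03 CPM in Ensure fed 9, 10, 12 and 16. The call was lost with lane as a term (0.79, adjusted p = 0.0582), without those 5 libraries rich in epididymis and testis markers (0.61, adjusted p = 0.0871) and among the 8 libraries of low Cdh16 (0.35, adjusted p = 0.377). Over its 34 alternatives the difference was 0.35 to 0.87, with adjusted p of 0.000646 to 0.377. With Msln and Cdh16 levels as terms, added after the data were seen, Wt1 had 0.68 (adjusted p = 0.00478). Of the fat progenitor markers Pdgfra, Dpp4, Pi16 and Ly6a, 3 of 4 were called higher in the same comparison, with a median of 0.71, but 1 of 4 without Ensure fed 1, 16 or 18 or Ensure fasted 7 or 8, and 0 of 4 with lane as a term. Their part in the Wt1 difference was not tested.

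The other mesothelial members had log2 fold changes of 0.24 ± 0.31 (Msln), 0.24 ± 0.34 (Upk3b), 0.25 ± 0.27 (Upk1b) and 0.26 ± 0.33 (Lrrn4) in Ensure fasted against fed mice, none called, and 0 of 9 other mesothelial genes were called. Krt18 had 2.48 ± 1.07 (adjusted p = 0.106), Krt19 1.61 ± 0.63 (adjusted p = 0.0804) and Krt8 1.959 ± 1.12 (adjusted p = 0.219). Without Ensure fasted 5, the library highest in epididymis and duct smooth muscle markers, they were 0.55 for Krt18, 0.53 for Krt19 and 0.59 for Krt8, none called. Without the 6 libraries of highest Cdh16 they were -0.65 for Krt18, 0.18 for Krt19 and -0.62 for Krt8. Krt19 alone of the keratins was called in some alternatives, by DESeq2 (1.61, adjusted p = 0.0355) and by edgeR without Ensure fasted 7 (1.85, adjusted p = 0.0461) or without Ensure fasted 8 (1.86, adjusted p = 0.0384). DESeq2 called 4390 of 16015 genes in this comparison, against 3255 with edgeR. Of the 16 simple epithelial genes, 5 were called higher, among them Muc1 (1.31 ± 0.29) and Cldn4 (4.43 ± 1.36), and duct smooth muscle markers were called higher in 4 of 4, with a median of 3.75. Without Ensure fasted 5, 1 of 16 and 0 of 4 were called, and the smooth muscle median was 0.19. With lane as a term 0 of 16 and 0 of 4 were called, and without Ensure fed 9, 12 or 18 1 of 16 and 2 of 4. Ensure fasted 5 held 39.2 CPM of Cldn4, and the highest level was 0.77 CPM among the other Ensure fasted and 0.718 CPM among the Ensure fed libraries. The difference of Cldn4 without that library was -0.23 ± 0.89 (adjusted p = 0.892), and its call was also lost without Ensure fed 1, 9, 12 or 18. Muc1, an epithelial mucin, was at 1.78 to 3.57 CPM in Ensure fasted libraries, against 0.543 to 1.41 CPM in Ensure fed ones, and stayed called without Ensure fasted 5 (1.30 ± 0.31, adjusted p = 0.0084), but not with lane as a term (0.97, adjusted p = 0.14) or without the 5 libraries rich in epididymis and testis markers (0.80, adjusted p = 0.152) or the 6 of highest Cdh16 (0.97, adjusted p = 0.0648). The count of simple epithelial genes called ranged from 1 to 9 with 1 library left out and was 1 also without Ensure fed 1.

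In HFD fasted against fed mice, 1.22% of genes (0.187% higher, 1.03% lower) and 0 of 8 members were called (edgeR). At an unadjusted p under 0.05 stood 1 of 8 members, Wt1, beside 2375 of all 16015 genes. The groups overlapped for every member, where 8.45% of genes did not overlap. The 195 calls over all genes became 23 without HFD fed 25, 59 without HFD fasted 23 and 399 without Ensure fasted 5, the range over omissions of 1 library being 23 to 399, and 1 in a fit of the HFD groups alone. Wt1 was at 21.0, 16.03, 14.0 and 13.1 CPM in HFD fasted 24, 23, 28 and 26, against 15.6, 10.8, 10.6 and 8.68 CPM in HFD fed 27, 21, 22 and 25, so that the groups overlapped, with a log2 fold change of 0.49 ± 0.20 (adjusted p = 0.258). The difference between the Ensure and HFD responses of Wt1 was 0.27 ± 0.26 (adjusted p = 0.854), and edgeR called 0% of genes in that test. There 1234 of 16015 genes and 0 of 8 members had an unadjusted p under 0.05, and limma voom called 1170 genes and DESeq2 65. The other members had log2 fold changes of 0.33 ± 0.36 (Msln), 0.27 ± 0.40 (Upk3b), 0.45 ± 0.31 (Upk1b), 0.44 ± 0.38 (Lrrn4), 1.04 ± 1.30 (Krt8), 1.14 ± 1.23 (Krt18) and 0.32 ± 0.74 (Krt19). Limma voom with sample quality weights called Krt8 (2.46, adjusted p = 0.04996) and Krt18 (2.45, adjusted p = 0.0292) here, where it called 2974 genes in all, against 195 with edgeR.

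Between the diets, 4.26% of genes were called in fed (2.09% higher, 2.17% lower) and 2.82% in fasted mice (1.63% higher, 1.19% lower), and 0 of 8 members in either (edgeR). At an unadjusted p under 0.05 stood 0 of 8 members in either, beside 2981 of 16015 genes in fed and 3253 in fasted mice. With 1 library left out, 239 to 1618 genes were called in fed and 209 to 767 in fasted mice, and with lane as a term 2 and 0. The Ensure and HFD libraries overlapped for every member, while 13.3% of genes did not overlap in fed and 3.99% in fasted mice. The split of all calls moved with scaling: 335 higher and 347 lower among fed mice became 556 and 329 with library sizes over all genes, and 261 higher and 191 lower among fasted mice became 215 and 308 with library size alone. Msln had log2 fold changes of 0.66 ± 0.33 among fed (adjusted p = 0.309) and 0.57 ± 0.34 among fasted mice (adjusted p = 0.368) for Ensure against HFD. All 8 HFD libraries were in lane 7 with 1 Ensure fed library, so that diet and lane cannot be told apart among fasted mice. Without the 6 libraries of highest Cdh16, Msln was called higher in Ensure than in HFD fasted mice (1.35, adjusted p = 0.0436), in a fit that called 2727 of 15423 genes. This compared Ensure fasted 7, 8 and 17 with HFD fasted 23 and 28 only. Krt18 had 1.29 ± 1.18 among fasted mice (adjusted p = 0.584), and voom with quality weights gave -2.51 (adjusted p = 0.0339), the opposite direction. Voom called 3418 of 16015 genes in that comparison, against 452 with edgeR.

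**Figure D5:**
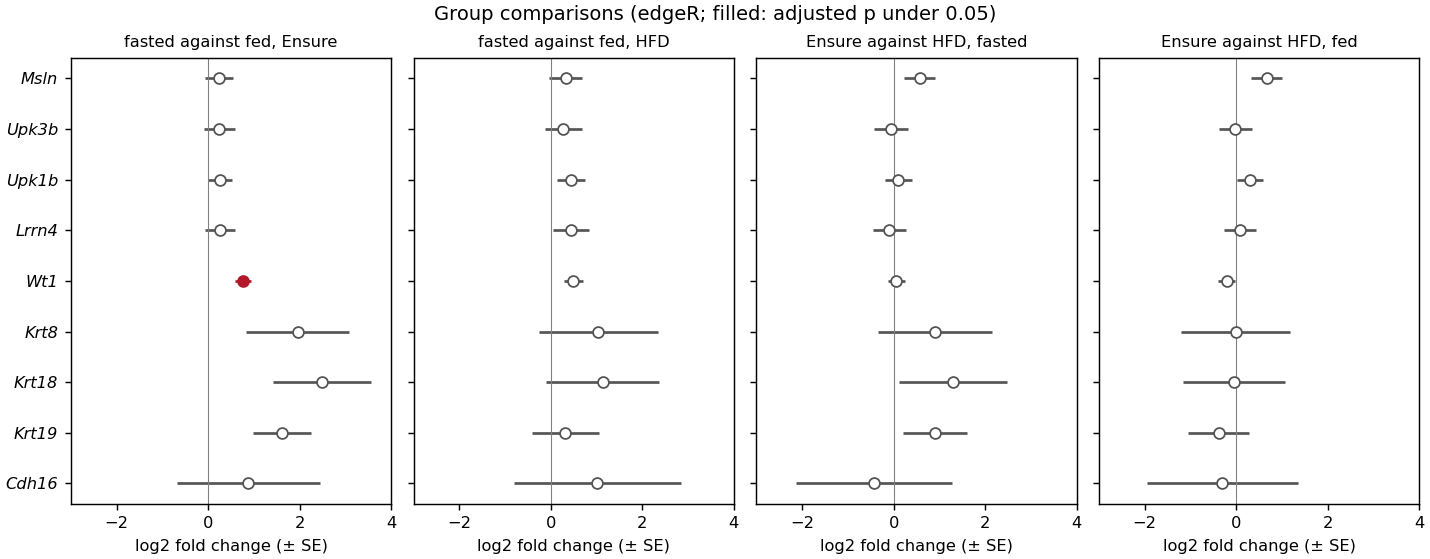
Log2 fold changes with SE bars of the 8 members and Cdh16 in the 4 group comparisons, with filled points at an adjusted p under 0.05 (edgeR). Wt1 in Ensure fasted against fed mice (0.76 ± 0.17) is the filled point, and the keratins and Cdh16 have the widest bars.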

How the data were processed

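Whole perigonadal fat was sequenced in 19 libraries of 4 groups taken from the labels. The submitters' processing notes name bcl2fastq 1.8.4, TopHat2 2.1, HTSeq 0.6.1 and the build mm9. Settings and strand were not given in the sources used here, so reads of overlapping genes on opposite strands cannot be told apart. The authors deposited raw counts, whole numbers for each gene symbol. The 5 summary lines of HTSeq were dropped. Of the total, they put 13.01 to 17.3% outside genes, 0.695 to 0.893% as ambiguous and 20.7 to 27.7% as not unique. Each of 37 same-group pairs differed by more than sampling noise, so all 19 entered as separate libraries.

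Members were tested with edgeR 4.0.16 (R 4.3.3), a quasi-likelihood F test in 1 fit of 19 libraries with 4 groups, TMM scaling and filterByExpr at a minimum count of 10, which kept 16015 genes, with Benjamini-Hochberg adjustment over all of them. Slopes used log2(CPM + 0.5) of Cdh16, Msln or both beside the groups. SE is the log2 value over the square root of F. Fits were tested on simulated data. Correlations used Python 3 with 100000 permutations, or all orders for 8 libraries. Floors of 3 counts cover counting error only. Alternatives used DESeq2 1.42.0 and limma 3.58.1 voom, among others.

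Members, lists and tests were chosen with earlier results of these data known. Named genes are all members and Cdh16, up to 4 genes of a list by smallest p, and the 6 genes most like Msln, Krt18 and Cdh16 in pattern; further list genes were named after their values were seen. A gene that this rule names is not reported here. Library sizes over the genes kept were taken as the main setting after 8 combinations of library size, robust fit and dispersion estimate had been compared by their numbers of calls, because they matched the earlier processing of these data. The promoter motifs, the keratin shares per kb, the correlations among mesothelial members other than with Msln and those of keratins with Msln within the Cdh16 sets were also chosen after levels were seen, as were the list counts, spreads and likeness without single libraries.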

Additional observations from a re-analysis of the deposited data

Results flagged for a closer look

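Of 36 sets of values (9 genes in 4 groups), 9 held a library far from the others of its group by Dixon's test on CPM. Its rate of about 1 in 20 by chance holds for normal values and separate sets. These levels were not put on a log scale and several of the genes vary together. The 9 of 36 therefore cannot be set against that rate, and the libraries are named as a description. In HFD fed 21, Cdh16 was at 41.9 CPM, Krt8 at 32.4 CPM and Krt18 at 26.02 CPM, where the next highest HFD fed libraries had 4.57, 4.57 and 4.78 CPM. In Ensure fed 16, Cdh16 was at 42.1 CPM, where the next highest had 13.03 CPM. In Ensure fasted 5, Krt18 was at 199 CPM and Krt19 at 108 CPM, where the next highest had 41.7 and 34.9 CPM. In HFD fed 27, a different library, 3 mesothelial members stood apart: Msln at 40.2 CPM, Upk3b at 92.0 CPM and Upk1b at 20.3 CPM, where the next highest had 26.4, 46.0 and 11.9 CPM. The keratins and Cdh16 of HFD fed 27 were not marked.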

How the results depend on the processing

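No paired analysis was possible because the groups share no replicate numbers. Counts of members called changed as follows, and the cause was not tested. Settings that left libraries out also had a smaller number of them, and the others kept all 19. Limma voom with quality weights called 2 of 8 members in HFD fasting and 1 of 8 between fasted groups, beside 2974 and 3418 of all 16015 genes. DESeq2 called 2 of 8 members in Ensure fasting, beside 4390 of 16015 genes. Lane as a term, and leaving out the 5 libraries rich in epididymis and testis markers, gave 0 in Ensure fasting and 0 on Msln, alone or beside Cdh16. Counts without the 11 libraries above the log2 gap are not compared, because HFD fed 25 alone remained of its group. Leaving out the 6 libraries of highest Cdh16 gave 0 on Cdh16, alone or beside Msln, 0 on Msln beside Cdh16 and 1 between fasted groups. Without the group term 0 were called on Msln beside Cdh16. Leaving out 1 library at a time gave 1 to 2 members in Ensure fasting, 0 to 3 on Msln and 0 to 3 on Msln beside Cdh16. Of the 35 correlations, 9 passed in the main form, 15 with group means removed within the set, 14 with means over all 19 libraries removed and 12 with library size alone.

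Leaving out the 11 libraries left HFD fasted 23 and 28, HFD fed 25 alone, Ensure fasted 7 and 8 and Ensure fed 9, 10 and 18. Signs in that setting therefore rest on very few libraries and decide nothing. Without the 11 libraries, HFD fasting gave -0.21 for Msln, -0.21 for Upk3b, -0.092 for Lrrn4, -0.24 for Krt8 and -0.37 for Krt19. Ensure fasting gave -0.040 for Msln, -0.21 for Upk3b, -0.30 for Upk1b, -0.12 for Lrrn4, -1.12 for Krt8, -1.01 for Krt18 and -0.16 for Krt19. The difference of the responses was -0.38 for Wt1 and the difference between fasted groups -0.29 for Krt18. Slopes on Cdh16 were -0.43 for Msln, -0.73 for Upk3b, -0.84 for Upk1b, -0.87 for Lrrn4 and -0.43 for Wt1, with -0.0057 for Wt1 on Msln. Krt19, called over 19 libraries, was at -0.62 on Cdh16 and at -0.36 on Cdh16 beside Msln. Leaving out the 6 libraries left HFD fasted 23 and 28 against HFD fed 22, 25 and 27. HFD fasting then gave -0.43 for Msln, -0.57 for Upk3b, -0.43 for Lrrn4, -0.87 for Krt8, -0.069 for Krt18 and -0.77 for Krt19. Ensure fasting gave -0.62 for Krt8 and -0.65 for Krt18, and the slope of Krt18 on Msln was 0.63. Without the 5 libraries, HFD fasting gave -0.21 for Upk3b, -0.037 for Lrrn4 and -0.13 for Krt19, Ensure fasting -1.57 for Krt8, -1.18 for Krt18 and -0.19 for Krt19, the fasted groups -1.84 for Krt18, the slope on Cdh16 -0.00071 for Lrrn4 and that on Msln 0.58 for Krt18. Voom gave -0.015 for Upk3b in HFD fasting, -0.069 for Krt8 and -0.037 for Krt18 in Ensure fasting, -2.51 for Krt18 between fasted groups, -0.0093 for Lrrn4 on Cdh16 and 1.12 for Krt18 on Msln. Lane as a term gave -0.018 for Msln and -2.31 for Krt18 between fasted groups and -0.14 for Krt8 on Msln. Msln and Cdh16 as terms gave -0.035 for Upk3b and -0.11 for Krt19 in HFD fasting. The slope of Krt18 on Msln was 0.028 with DESeq2 size factors, 0.69 with library size alone, 0.093 with library sizes over all genes and 0.84 without the group term. Leaving out 1 library at a time gave, in HFD fasting, -0.21 to 0.66 for Upk3b, -0.036 to 0.76 for Lrrn4 and -0.14 to 0.74 for Krt19, in Ensure fasting -0.011 to 0.40 for Msln, between fasted groups -0.64 to 1.79 for Krt18, and on Msln -0.27 to 1.67 for Krt8 and -0.56 to 1.09 for Krt18. Among the 8 libraries of low Cdh16, r of Krt8 with Cdh16 was 0.51 with group means removed and 0.81 with means over all 19 libraries removed (permutation test, adjusted p = 0.0321), where that of Krt19 was 0.59.

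Over all 2360 values of members and Cdh16, 221 changed sign, 3 of them with a call on either side, 53 calls were lost and 25 gained. Wt1 in Ensure fasting stayed positive throughout, at 0.35 to 0.87. In the 8 combinations of library size, robust fit and dispersion estimate, Ensure fasting called 3241 to 3723 genes. Depth limits Cdh16, at 1 to 9 counts in 8 libraries.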
